A study of Arabidopsis thaliana with 30 samples.

Results

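Untreated wild-type leaves of Arabidopsis thaliana collected 10 min into a waterlogging time course were compared with untreated wild-type leaves collected at its start. The 6 libraries were chosen by their titles: 3 are WT controls at 10 min and 3 are WT at 0 min, out of 30 libraries in the series. All 6 carry the genotype Col-0 and neither group was waterlogged, so time since the start is the only labelled difference between them. The other libraries are WT controls at 30 and 60 min, waterlogged WT plants at 10, 30 and 60 min, and the rbohD mutant at 0 and 60 min. The leaves are called systemic in the design, meaning leaves away from the flooded roots. The design text gives 3 repeats and 15 plants per genotype and time point and does not say how plants were divided among libraries. The p-values therefore measure the spread between libraries within groups, taken over all 10 groups of the series. Plant age, light, time of day and how the control pots were handled are not given in the sources used here.

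Leaf RNA changes within minutes when light, the circadian clock or mechanical contact changes. Morning genes of the clock, such as the MYB factors CCA1 and LHY, peak around dawn and decline through the day, and they repress evening genes such as TOC1. Light-grown leaves keep the bZIP factor HY5 and many B-box zinc finger proteins active, while touch, wounding and reactive oxygen species (ROS) induce calcium-binding proteins, ethylene response factors (ERFs) and WRKY factors within minutes.

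Levels are in FPKM (fragments mapped to a gene, scaled to its length and to the size of the library), as the authors deposited them. A gene was called when limma, fitted to log2(FPKM + 1) of all 30 libraries, gave a Benjamini-Hochberg adjusted p under 0.05 for 10 min minus 0 min. Of 17491 genes tested, 1388 were called (7.94%). Of these, 457 were higher at 10 min (2.61%) and 931 were lower (5.32%), so 32.93% of the calls were rises. That split depended on the scaling: after quantile normalization 646 genes were higher and 535 lower (54.7% rises), and with nuclear protein-coding genes set to equal totals 382 were higher and 1445 lower (20.91% rises). A fit to the 6 libraries alone called 481 genes, of which 428 were among the 1388. The full fit called 849 genes (531 lower) without replicate 2 at 10 min, 938 genes (614 lower) without replicate 3 at 10 min and 922 genes (555 lower) without replicate 3 at 0 min. The genes named below as the 12 largest rises and the 12 largest falls are called protein-coding genes that averaged 5 FPKM or more in the 6 libraries and whose groups did not overlap. Most changes were small: the median size of a called change was 0.30 on the log2 scale, and 32 called genes changed at least 2-fold, 14 of them higher and 18 lower. In 4735 genes (27.1%) the 3 values at 10 min did not overlap the 3 values at 0 min, 1485 with 10 min higher and 3250 with 10 min lower. Since these are whole leaves, fewer cells of a type and less RNA per cell cannot be told apart.

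**Figure D1:**
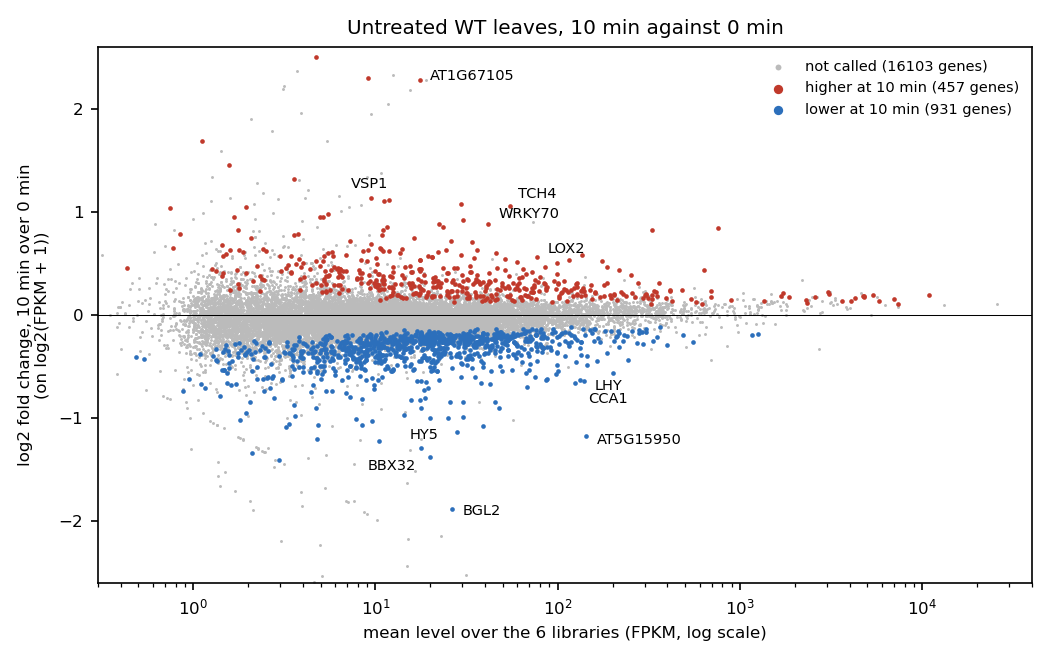
Log2 fold change of each tested gene (vertical axis, 10 min over 0 min, on log2(FPKM + 1)) against its mean level over the 6 libraries (horizontal axis, FPKM, log scale). Red points are the 457 genes called higher at 10 min and blue points the 931 called lower, most of them within 1 unit of 0; 87 genes lie outside the axes.

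The libraries were of similar depth. The authors' confidence bounds imply 12.45 to 13.01 M fragments (M, 1e6) in the libraries at 10 min and 10.89 to 12.94 M in those at 0 min. Replicates correlated at 0.982 to 0.986 at 10 min and at 0.978 to 0.979 at 0 min (Pearson's r across genes, log2 scale). The 18S ribosomal RNA gene AT3G41768 read 1809 to 1903 FPKM at 10 min and 1473 to 2061 FPKM at 0 min. A tRNA gene, AT5G35605, was listed at 40360 FPKM in replicate 3 at 0 min and at 0 in the other 5 libraries, and takes part of that library's FPKM total. Genes of green leaf tissue were abundant: the 17 nuclear genes for antenna proteins and Rubisco summed to 111200 to 113700 FPKM at 10 min and to 99990 to 104900 FPKM at 0 min. Of 5 root markers, CASP1, COBL9, EXPA7 and IRT1 averaged below 1 FPKM, and all 4 floral markers did too. PYK10 did not, and the 5 root markers summed to 91.75 to 99.52 FPKM at 10 min and 76.41 to 80.23 FPKM at 0 min. Of 3 shoot meristem markers only WUS averaged below 1 FPKM. Their sum was 5.77 to 6.04 FPKM at 10 min and 5.61 to 6.545 FPKM at 0 min. Summed markers of guard cells lay at 41.6 to 42.2 FPKM at 10 min and 38.6 to 42.9 FPKM at 0 min, those of the epidermis at 275 to 309 FPKM at 10 min and 266 to 299 FPKM at 0 min, and those of phloem and xylem at 140 to 145 FPKM at 10 min and 131 to 142 FPKM at 0 min. The groups did not overlap in 3 of 5 tested phloem and xylem markers, 3 of 4 guard cell markers and 0 of 4 epidermis markers, beside 27.1% of all tested genes. Among the phloem and xylem markers 1 was called lower, the phloem factor gene APL (-0.27, adjusted p 0.0454). That call was lost when 1 library was left out, for each library except replicate 3 at 10 min. No tested marker of guard cells or epidermis was called, beside 7.94% of all tested genes.

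Genes of the morning clock fell together. All 15 members of a list of morning-phased clock genes were tested, and 13 were called lower at 10 min and none higher. Their median log2 fold change was -0.36, beside -0.04 over all tested genes, of which 5.32% were called lower. CCA1 (AT2G46830, chr2:19245591-19248915), a MYB repressor at the centre of the clock, had 110, 98.6 and 104 FPKM at 10 min, against 157, 164 and 162 FPKM at 0 min. The groups did not overlap, and the log2 fold change was -0.62 (SE 0.04, adjusted p 2.14e-09). LHY (AT1G01060, chr1:33365-37871), the closest partner of CCA1, had 113, 105 and 107 FPKM at 10 min, against 177, 166 and 167 FPKM at 0 min (-0.64, SE 0.08, adjusted p 6.28e-06). In both core repressors every value at 10 min lay below every value at 0 min. PRR9 (AT2G46790), a pseudo-response regulator that represses CCA1 and LHY, fell furthest of the list, with 32.1, 31.2 and 33.4 FPKM at 10 min and 57.1, 57.2 and 61.1 FPKM at 0 min (-0.84, SE 0.06, adjusted p 2.50e-09). The MYB-like activator RVE8 averaged 40.1 FPKM at 10 min and 58.9 FPKM at 0 min (-0.54, adjusted p 2.61e-07).

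The smaller falls of the list were in PRR7 (log2 fold change -0.15), RVE4 (-0.19), RVE6 (-0.34), RVE1 (-0.51), RVE7 (-0.29), CDF1 (-0.28) and the coactivators LNK2 (-0.29), LNK3 (-0.40) and LNK4 (-0.36). RVE2 and LNK1 did not pass the test, with log2 fold changes of -0.37 and -0.08. ASG4 (AT1G01520, also known as RVE3), a MYB-like gene of the REVEILLE family outside the list, was among the 12 largest falls: it had 15.8, 17.1 and 18.9 FPKM at 10 min, against 37.7, 39.95 and 39.5 FPKM at 0 min (-1.14, SE 0.08, adjusted p 2.50e-09). AT2G46670 also fell (-0.997), but it is 99.5% identical to PRR9 over 874 bases, so how reads were divided between the 2 genes is uncertain. In the fit of the 6 libraries alone, 8 of the morning genes were called lower.

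Evening clock genes were called in both directions. Of 12 members 7 were tested, 1 was called higher and 1 lower, beside 2.61% and 5.32% of all tested genes. Their median log2 fold change was -0.12, beside -0.04 over all tested genes, with 2 positive and 5 negative. In 5 of the 7 the groups did not overlap, beside 27.1% of all tested genes. TOC1, the evening repressor, had 2.91, 3.37 and 2.95 FPKM at 10 min, against 3.48, 3.48 and 2.95 FPKM at 0 min (-0.08, adjusted p 0.691). GI, a clock protein of the late day, averaged 8.32 FPKM at 10 min and 9.09 FPKM at 0 min (-0.12, adjusted p 0.238). PRR5, PRR3, ELF4, BOA and FKF1 were too low to be tested. TCP21, which binds the CCA1 promoter, was called higher (0.29), and the RNA-binding protein gene GRP7 was called lower (-0.47).

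The G-box CACGTG, a site for bHLH and bZIP factors including HY5, was looked for on both strands from 250 bases before to 50 bases after each gene start. It occurred in 10 of the 15 morning clock promoters. Among protein-coding genes it was in 12.8% of 912 genes called lower, 8.85% of 452 called higher and 8.99% of all 16803 tested. The 250 bases before PRR9 and CCA1 are shown because both genes fell and carry it. They are from the RefSeq TAIR10.1 genome, plus strand, chr2:19232357-19232606 for PRR9 and chr2:19245341-19245590 for CCA1, with the G-box in capitals.
PRR9: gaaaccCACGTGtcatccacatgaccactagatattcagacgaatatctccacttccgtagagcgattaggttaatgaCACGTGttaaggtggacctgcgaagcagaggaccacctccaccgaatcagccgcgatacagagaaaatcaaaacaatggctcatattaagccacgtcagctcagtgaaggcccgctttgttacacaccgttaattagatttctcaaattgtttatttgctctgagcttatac
CCA1: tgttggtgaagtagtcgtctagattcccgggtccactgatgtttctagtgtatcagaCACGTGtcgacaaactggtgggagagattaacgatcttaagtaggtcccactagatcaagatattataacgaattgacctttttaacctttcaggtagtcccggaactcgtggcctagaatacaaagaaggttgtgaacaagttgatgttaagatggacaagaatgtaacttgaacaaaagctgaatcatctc
PRR9 holds the motif at 244 and 172 bases before the gene, and CCA1 at 193 bases. A match describes these letters, not binding.

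Light-signalling genes also fell. Of 17 tested members of the light list, 10 were called lower and none higher, beside 5.32% and 2.61% of all tested genes. The list's median log2 fold change was -0.33. HY5 (AT5G11260, chr5:3593335-3595073), a bZIP factor of light signalling, had 17.1, 16.6 and 15.2 FPKM at 10 min, against 31.4, 36.2 and 32.9 FPKM at 0 min. Its log2 fold change was -0.99 (SE 0.12, adjusted p 6.90e-06). Its groups did not overlap, which the rule that named the largest falls, HY5 among them, already asks. HYH, the homologue of HY5, had 72.3, 70.0 and 60.2 FPKM at 10 min, against 97.05, 105 and 113 FPKM at 0 min (-0.63, adjusted p 3.35e-06). SIG5, a nuclear-encoded sigma factor of the plastid RNA polymerase, averaged 78.7 FPKM at 10 min and 117 FPKM at 0 min (-0.57, adjusted p 2.97e-08). SPA3 and SPA4, partners of the ubiquitin ligase COP1 that limit light responses, were lower as well (-0.51 and -0.33), as was RUP1, a repressor of UV-B signalling (-0.33). Early light-induced protein genes did not pass: ELIP1 had a log2 fold change of 0.04 and ELIP2 of -0.29. The PHYA photoreceptor gene averaged 20.4 FPKM at 10 min and 23.4 FPKM at 0 min (adjusted p 0.0681).

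B-box genes were prominent among the largest falls. BBX32 (AT3G21150, chr3:7412445-7413727), a B-box protein that represses light signalling, had 10.6, 11.2 and 10.3 FPKM at 10 min, against 29.2, 28.1 and 30.5 FPKM at 0 min (-1.37, SE 0.15, adjusted p 8.74e-07). BBX31 had 4.63, 7.37 and 5.82 FPKM at 10 min, against 14.5, 14.7 and 15.9 FPKM at 0 min (-1.22, SE 0.17). The call for BBX31 was lost with a pseudocount of 0.1. BBX30, a near relative that codes for a microprotein, averaged 19.8 FPKM at 10 min and 40.2 FPKM at 0 min (-0.99), and BBX29 averaged 5.99 FPKM at 10 min and 13.2 FPKM at 0 min (-1.02). For BBX32, BBX31 and BBX29 the rule that named the largest falls already asks for groups that do not overlap. BBX30 was named from the light list instead, and its groups did not overlap.

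The GATA factor CGA1 (AT4G26150), which promotes chlorophyll synthesis and chloroplast growth, had 10.8, 9.54 and 9.36 FPKM at 10 min, against 28.3, 24.5 and 24.4 FPKM at 0 min (-1.29, SE 0.14, adjusted p 1.98e-06). Its paralog GNC, looked up after the values of CGA1 were seen, averaged 33.2 FPKM at 10 min and 62.6 FPKM at 0 min (-0.90, adjusted p 5.65e-09). AT5G15950 (chr5:5205869-5208036), named in RefSeq as an adenosylmethionine decarboxylase of polyamine synthesis, was the most abundant of the 12 largest falls. It had 90.6, 85.9 and 87.7 FPKM at 10 min, against 194, 194 and 210 FPKM at 0 min (-1.17, SE 0.06, adjusted p 3.12e-11). AT5G54130, annotated in RefSeq as a member of a calcium-binding endonuclease, exonuclease and phosphatase family (-1.08), and AT3G09450, annotated with the fusaric acid resistance family (-1.06), also fell.

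**Figure D2:**
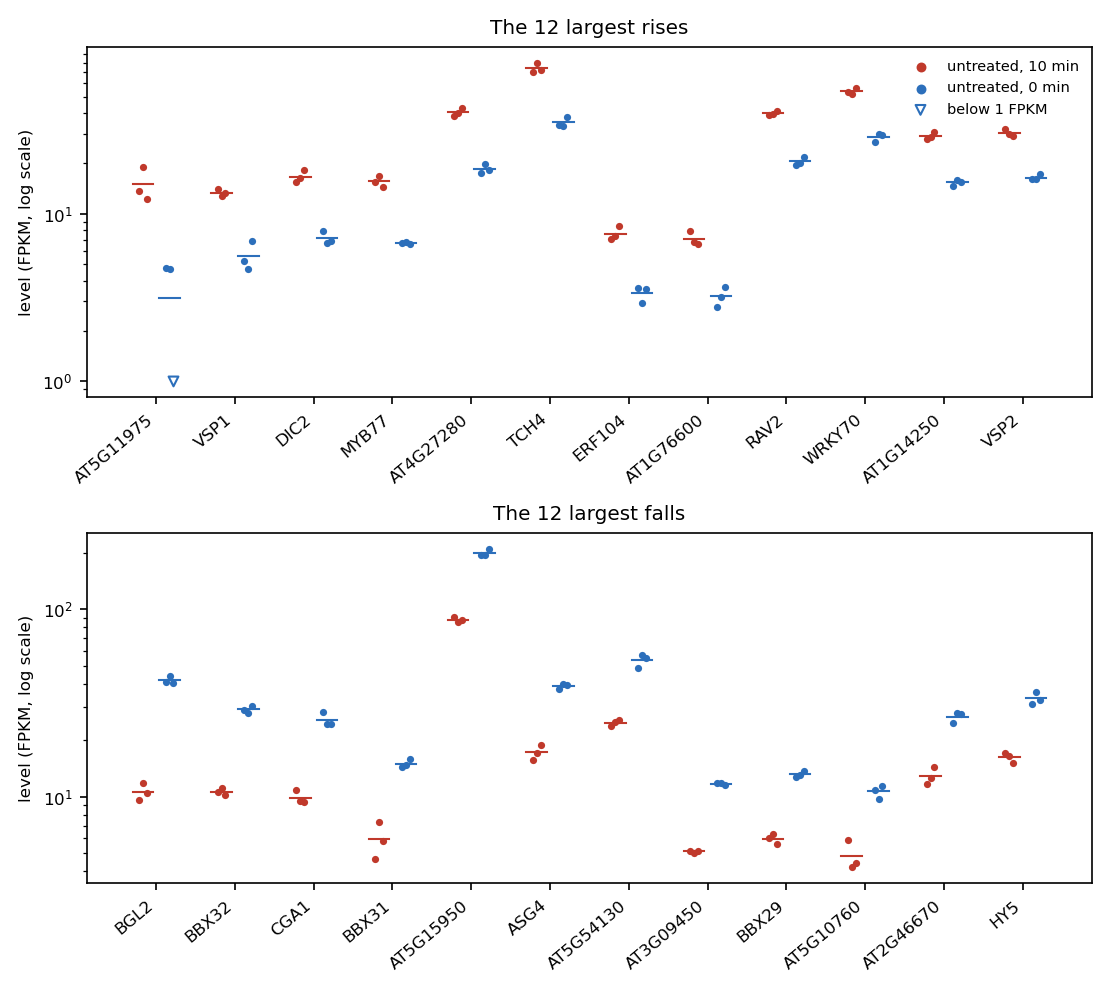
Level in each library (vertical axis, FPKM, log scale) of the 12 largest rises (top) and 12 largest falls (bottom), with 10 min in red left of 0 min in blue; bars are means of 3 libraries and the open triangle is a value below 1 FPKM. In each of the 24 genes, as the rule that named them asks, the 3 values at 10 min lie wholly on one side of the 3 values at 0 min.

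Many touch and ROS genes rose. Of 31 members of a list of early responses to ROS, touch and wounding, 27 were tested, 14 were called higher and 1 lower. Over all tested genes 2.61% were called higher and 5.32% lower. The list's median log2 fold change was 0.41. TCH4 (AT5G57560, chr5:23307006-23308680), a xyloglucan-modifying enzyme of the cell wall and a classic touch gene, had 70.1, 79.6 and 72.5 FPKM at 10 min, against 34.0, 33.6 and 37.7 FPKM at 0 min (1.05, SE 0.07, adjusted p 7.66e-10). The calmodulin-like genes TCH2 and TCH3 rose less: TCH2 averaged 83.1 FPKM at 10 min and 62.1 FPKM at 0 min (0.41, adjusted p 0.000526), and TCH3 averaged 116 FPKM at 10 min and 81.5 FPKM at 0 min (0.50, adjusted p 9.02e-06). All 3 touch genes thus rose, by unequal amounts. AT4G27280, an EF-hand calcium-binding protein outside the list, had 38.1, 40.1 and 42.8 FPKM at 10 min, against 17.63, 19.9 and 18.3 FPKM at 0 min (1.08, SE 0.06, adjusted p 2.49e-11).

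Of 7 ethylene response factors on the touch and ROS list 6 were tested, and 5 of these rose, all at low levels. ERF104 had 7.06, 7.37 and 8.45 FPKM at 10 min, against 3.60, 2.92 and 3.56 FPKM at 0 min (0.98, SE 0.16, adjusted p 0.000224). ERF6 averaged 2.54 FPKM at 10 min and 0.996 FPKM at 0 min (0.83), ERF13 averaged 2.98 FPKM at 10 min and 0.940 FPKM at 0 min (1.04), and ERF5 averaged 2.15 FPKM at 10 min and 1.32 FPKM at 0 min (0.44). ERF105 read 1.79, 2.21 and 2.73 FPKM at 10 min and at most 4.52e-05 FPKM in each library at 0 min, so no fold is given. ERF11 averaged 0.517 FPKM at 10 min and 0.585 FPKM at 0 min (-0.06, adjusted p 0.871), and ERF109 was too low to test. ACS6, an ethylene-forming ACC synthase induced by stress, averaged 32.6 FPKM at 10 min and 19.5 FPKM at 0 min (0.72, adjusted p 7.01e-08). It was the only one of 6 tested ethylene genes to pass, beside 7.94% of all tested genes.

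Not all members of the touch and ROS list rose. WRKY40, a stress repressor, had 1.96, 1.75 and 2.29 FPKM at 10 min, against 0.664, 1.001 and 0.953 FPKM at 0 min (0.68, adjusted p 1.52e-05). The zinc finger genes SZF1 (0.64) and ZAT10 (0.44), the MYB factor gene MYB44 (0.33), SIB1 (0.58) and PHI-1 (0.85) also rose. By contrast ZAT12, a standard marker of ROS signalling, had 0.775, 1.04 and 1.21 FPKM at 10 min, against 0.970, 0.631 and 1.77 FPKM at 0 min, and its groups overlapped (-0.05, adjusted p 0.921). WRKY33 and WRKY18, defence regulators, had log2 fold changes of -0.01 each, and WRKY46 was called lower (-0.62, adjusted p 0.000473). RBOHD, the NADPH oxidase that makes ROS outside the cell, had 16.8, 15.6 and 15.6 FPKM at 10 min, against 17.5, 17.1 and 17.62 FPKM at 0 min (-0.12, adjusted p 0.315).

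The CAMTA box ACGCGT, bound by calmodulin-binding transcription activators, and the rapid stress element CGCGTT, which can overlap it, were looked for in the same windows on both strands. ACGCGT was in 5.75% of 452 promoters of genes called higher, 2.52% of 912 called lower and 2.28% of all 16803. CGCGTT was in 6.195% of the higher, 3.18% of the lower and 3.70% of all. Of 27 promoters of the touch and ROS list, 3 held ACGCGT and 2 held CGCGTT. Those of TCH4, ERF104, ERF105 and ERF13 held neither. Upstream sequences of TCH2 and PHI-1 are shown because both rose and carry such letters, and they are not typical of the list. They are the 250 bases before each gene in RefSeq TAIR10.1, chr5:14999620-14999869 on the minus strand for TCH2 and chr1:12851733-12851982 on the plus strand for PHI-1. Capitals mark both motifs in TCH2, where they overlap, and CGCGTT read on the opposite strand in PHI-1.
TCH2: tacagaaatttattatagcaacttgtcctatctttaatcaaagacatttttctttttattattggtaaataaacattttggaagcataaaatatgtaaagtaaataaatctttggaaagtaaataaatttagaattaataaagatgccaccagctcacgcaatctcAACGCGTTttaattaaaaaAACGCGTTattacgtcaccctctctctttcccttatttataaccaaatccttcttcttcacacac
PHI-1: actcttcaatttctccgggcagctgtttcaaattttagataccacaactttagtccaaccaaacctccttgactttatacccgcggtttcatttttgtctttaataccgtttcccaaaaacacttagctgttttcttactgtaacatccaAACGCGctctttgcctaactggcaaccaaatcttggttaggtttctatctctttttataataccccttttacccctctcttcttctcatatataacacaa
The heat shock element GAANNTTC was in 16.2% of the higher, 11.4% of the lower and 11.2% of all promoters. The I-box GATAAG was in 20.4% of the higher, 14.8% of the lower and 15.1% of all, the W-box core TTGAC in 48.2% of the higher, 54.2% of the lower and 50.2% of all. The evening element AAAATATCT was in 4.65% of the higher, 3.51% of the lower and 3.00% of all, and the telo-box AAACCCTA in 3.10% of the higher, 2.96% of the lower and 5.74% of all.

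Other regulators and transporters rose. MYB77, a MYB factor of auxin responses, had 15.5, 16.9 and 14.5 FPKM at 10 min, against 6.72, 6.76 and 6.64 FPKM at 0 min (1.11, SE 0.06, adjusted p 7.20e-11). DIC2, a mitochondrial dicarboxylate carrier, averaged 16.7 ± 1.49 FPKM at 10 min and 7.18 ± 0.619 FPKM at 0 min (SD, n = 3 each; 1.11, limma adjusted p 1.14e-07). RAV2, an AP2/B3 repressor of flowering also called TEM2, averaged 39.8 FPKM at 10 min and 20.6 FPKM at 0 min (0.92), and its relative RAV1 averaged 23.3 FPKM at 10 min and 15.4 FPKM at 0 min (0.57). AT1G76600 averaged 7.13 FPKM at 10 min and 3.22 FPKM at 0 min (0.95). The largest rise by the rule was AT5G11975 (chr5:3863277-3863671), an uncharacterized short gene with 13.8, 19.0 and 12.2 FPKM at 10 min and 4.74, 4.66 and 0.00353 FPKM at 0 min (2.30, SE 0.62, adjusted p 0.0227). It lies over AT5G11970 on the opposite strand, and since strand use is not given the reads of the 2 genes cannot be told apart. Its call was lost without replicate 1 or 2 at 10 min and without replicate 3 at 0 min.

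Part of the jasmonate list rose. Of 19 tested members 10 were called higher and none lower, beside 2.61% and 5.32% of all tested genes. The list's median log2 fold change was 0.19. The vegetative storage protein genes VSP1 and VSP2, whose RNA follows jasmonate, rose most. VSP1 (AT5G24780, chr5:8507590-8509201) had 14.2, 12.7 and 13.2 FPKM at 10 min, against 5.22, 4.70 and 6.92 FPKM at 0 min (1.13, SE 0.08, adjusted p 2.94e-09). VSP2 had 32.3, 30.1 and 29.2 FPKM at 10 min, against 16.1, 16.1 and 17.2 FPKM at 0 min (0.85, SE 0.08, adjusted p 1.59e-07). The 2 genes are 82.3% identical over 1671 bases, so their values are not fully separate. LOX2, the plastid lipoxygenase that starts jasmonate synthesis, had 93.8, 90.3 and 91.2 FPKM at 10 min, against 65.0, 60.2 and 60.2 FPKM at 0 min (0.56, SE 0.04, adjusted p 2.50e-09). Further synthesis genes rose less: AOS by 0.23, AOC1 by 0.33, AOC2 by 0.35 and OPR3 by 0.21.

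Of the JAZ repressors, which jasmonate both destroys and induces, JAZ1 (0.58), JAZ9 (0.26) and JAZ6 (0.19) rose. JAZ2, JAZ5, JAZ7, JAZ10 and JAZ12 did not pass, with log2 fold changes of 0.06 to 0.13. MYC2, the master bHLH factor of the pathway, averaged 13.4 FPKM at 10 min and 16.1 FPKM at 0 min (-0.26, adjusted p 0.0725). AT1G14250, a nucleoside phosphatase family gene outside the list, had 28.0, 28.6 and 31.0 FPKM at 10 min, against 14.8, 15.96 and 15.5 FPKM at 0 min (0.88, SE 0.05, adjusted p 7.20e-11). In the fit of the 6 libraries alone, 5 jasmonate genes were called.

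Genes induced in the dark or repressed by sugar rose as well. Of 14 tested members 8 were called higher and none lower, beside 2.61% and 5.32% of all tested genes. The list's median log2 fold change was 0.30. ASN1, an asparagine synthetase that accumulates in darkness, had 19.3, 21.0 and 22.6 FPKM at 10 min, against 16.4, 16.8 and 16.3 FPKM at 0 min (0.33, SE 0.05, adjusted p 0.000324). BT2, a BTB scaffold protein repressed by sugar, had 15.99, 17.98 and 17.04 FPKM at 10 min, against 11.57, 12.62 and 11.86 FPKM at 0 min (0.47). The class II trehalose-phosphate synthase genes TPS8 (0.42), TPS9 (0.27) and TPS11 (0.35), DIN10 (0.40), the sugar transporter gene STP1 (0.33) and EXL2 (0.27) rose too. SEN1, DRM2, MIOX2, TPS10, AKINBETA1 and DRM1 did not pass. With the 6 libraries fitted alone 4 members were called.

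Abscisic acid and dehydration genes fell slightly. Of 16 tested members 8 were called lower and none higher, beside 5.32% and 2.61% of all tested genes. The list's median log2 fold change was -0.21. The members were of opposing roles. ABI1 and HAB1, phosphatases that restrain abscisic acid signalling, fell by 0.39 and 0.34 on the log2 scale. ABF3, a bZIP activator of the pathway, had 42.1, 46.3 and 49.6 FPKM at 10 min, against 56.1, 62.4 and 63.6 FPKM at 0 min (-0.39, adjusted p 5.17e-05). The target genes RD29A (-0.33), ERD10 (-0.31), RD20 (-0.23), COR15A (-0.19) and COR47 (-0.18) were lower, while NCED3, the rate-limiting enzyme of abscisic acid synthesis, averaged 4.62 FPKM at 10 min and 5.62 FPKM at 0 min (-0.23, adjusted p 0.0928). Only 2 members were called in the fit of the 6 libraries, and 5 without replicate 3 at 10 min.

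Salicylic acid and defence genes split. Of 12 tested members 4 were called lower and 1 higher, beside 5.32% and 2.61% of all tested genes. The list's median log2 fold change was -0.08. BGL2 (AT3G57260, chr3:21188397-21189967), the pathogenesis-related glucanase also called PR2, was the largest fall by the rule. It had 9.63, 11.9 and 10.4 FPKM at 10 min, against 40.8, 44.1 and 40.5 FPKM at 0 min (-1.88, SE 0.09, adjusted p 1.62e-11). PR1, the standard marker of salicylic acid defence, had 2.55, 0.651 and 2.25 FPKM at 10 min, against 5.63, 4.09 and 4.33 FPKM at 0 min (-1.08, SE 0.23, adjusted p 0.00431). PR5 averaged 65.3 FPKM at 10 min and 89.1 FPKM at 0 min (-0.44), and PAD3, of camalexin synthesis, stayed below 1 FPKM in both groups (-0.40). AT5G10760 (AED1), an apoplastic protease outside the list, averaged 4.85 FPKM at 10 min and 10.7 FPKM at 0 min (-1.01, adjusted p 3.14e-06). WRKY70, a node between salicylic acid and jasmonate, went the other way with 53.6, 51.8 and 56.3 FPKM at 10 min, against 26.7, 30.0 and 29.7 FPKM at 0 min (0.88, SE 0.06, adjusted p 2.20e-09). ICS1, the synthesis gene, averaged 12.1 FPKM at 10 min and 11.7 FPKM at 0 min (0.04, adjusted p 0.806).

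**Figure D3:**
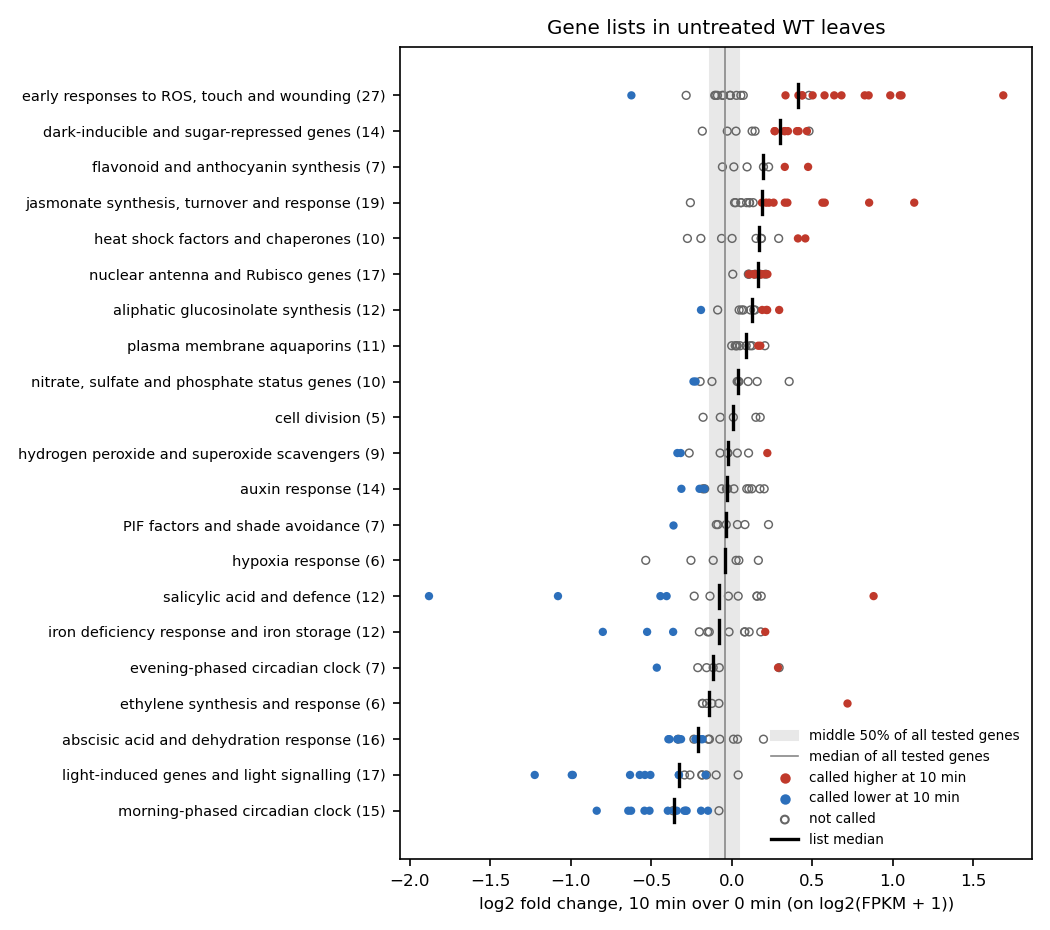
Log2 fold change (horizontal axis, 10 min over 0 min) of the tested members of each gene list with 5 or more of them, the number tested in parentheses; filled points were called, black bars are list medians and grey shows the middle 50% of all tested genes. The touch and ROS list lies to the right with a median of 0.41 and the morning clock list to the left with a median of -0.36.

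Photosynthesis genes showed a small upward shift, and the number called depended on the libraries fitted. Of 17 antenna and Rubisco genes 11 were called higher, beside 2.61% of all tested genes. The list's median log2 fold change was 0.17. All 17 had a positive log2 fold change. In 15 of the 17 the groups did not overlap, beside 27.1% of all tested genes. LHCB2.2, a light-harvesting protein of photosystem II, had 4949, 5068 and 5053 FPKM at 10 min, against 4327, 4429 and 4511 FPKM at 0 min (0.18, SE 0.04, adjusted p 0.00382). The count called was 3 without replicate 2 at 10 min, 4 without replicate 3 at 10 min, 2 without replicate 1 at 0 min and 7 without replicate 2 at 0 min. It was 9 without replicate 1 at 10 min and 9 without replicate 3 at 0 min. After quantile normalization the count was 1, and in the fit of the 6 libraries alone it was 0. LHCB1.3, the highest antenna gene, had 27740, 26710 and 25750 FPKM at 10 min, against 25700, 23590 and 25150 FPKM at 0 min, and did not pass (0.11, adjusted p 0.152). Of 66 plastid-encoded genes tested, petB was the single call upward (0.60, adjusted p 0.0496), and that call was lost when 1 library was left out, for each library except replicate 3 at 0 min. Another plastid gene was called lower, rpoB, a subunit of the plastid RNA polymerase, named after its values were seen (-0.26, adjusted p 0.0412), and it lost the call without replicate 2 or 3 at 10 min and without replicate 1 or 3 at 0 min.

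The remaining lists had between 0 and 5 calls each, beside 7.94% called over all tested genes. Of all 17491 tested genes, 3694 had an unadjusted p under 0.05 by limma. No core hypoxia gene was called by limma among 6 tested, and 1 had an unadjusted p under 0.05. That gene, PGB1, an oxygen-responsive globin, averaged 2.44 FPKM at 10 min and 3.92 FPKM at 0 min (-0.53, adjusted p 0.061). SUS1, a sucrose synthase, averaged 3.40 FPKM at 10 min and 3.27 FPKM at 0 min. Of the iron list, 12 genes tested, 1 was called higher and 3 lower. BHLH38 had 12.7, 13.96 and 13.65 FPKM at 10 min, against 24.2, 25.4 and 22.9 FPKM at 0 min (-0.80, adjusted p 2.50e-07), and BHLH39 (-0.53) and BHLH100 (-0.36) were also lower. These are bHLH factors of the iron deficiency response, and BTS, a ubiquitin ligase that restrains it, was higher (0.21). Heat shock genes had 2 calls among 10, HSP70-4 (0.46) and HSP90.1 (0.41), both chaperones. Auxin had 3 falls among 14, led by IAA3 (-0.31) and IAA2 (-0.20), repressors of auxin response. Glucosinolate synthesis had 4 rises among 12, led by BCAT4 (0.29), and a fall of its MYB regulator MYB28 (-0.19). Of flavonoid genes CHS (0.33) and LDOX (0.47) rose. Plasma membrane aquaporins had 2 rises among 11, PIP1C (0.16) and PIP2;7 (0.18). No cell division gene was called by limma among 5, and 0 had an unadjusted p under 0.05. Of 9 genes that remove hydrogen peroxide or superoxide, APX1 was higher and CSD2 and CCS were lower. Of 10 nutrient status genes the sulfate reductases APR2 (-0.22) and APR3 (-0.24) were lower, and of 7 shade genes HFR1 was lower (-0.37).

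Some single calls in these lists were fragile. MYB28, LDOX, BHLH100 and PIP1C each lost the call when 1 library was left out, whichever of at least 4 of the 6 libraries it was, as did APX1, an ascorbate peroxidase (0.22), CSD2 (-0.32), CCS (-0.34) and APR2. Of the root markers PYK10, a beta-glucosidase, averaged 94.7 FPKM at 10 min and 78.7 FPKM at 0 min (0.26), while the other 4 root markers stayed below 1 FPKM.

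Later control leaves show which changes lasted, with the limit that every contrast with 0 min shares the same 3 libraries. Controls at 30 min had 685 genes called against 0 min (3.92%) and controls at 60 min had 2181 (12.5%), so the 30 min leaves were the nearest of the later controls to 0 min by this count. Between 30 and 10 min 482 genes were called (2.76%). CCA1 averaged 161, 104, 143 and 94.7 FPKM at 0, 10, 30 and 60 min, and LHY averaged 170, 109, 164 and 98.6 FPKM. Both were higher at 30 than at 10 min (CCA1 0.46, adjusted p 3.38e-07, LHY 0.59, adjusted p 3.72e-05). The morning clock list had 13 falls at 10 min, 5 at 30 min and 11 at 60 min against 0 min, and 8 rises at 30 min against 10 min. AT5G15950 followed the same course, with 200, 88.1, 157 and 83.1 FPKM at 0, 10, 30 and 60 min.

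Other genes kept low values at 30 min. BBX32 averaged 29.3, 10.7, 10.6 and 7.32 FPKM at 0, 10, 30 and 60 min, and BGL2 averaged 41.8, 10.7, 7.90 and 18.18 FPKM. HY5 averaged 33.5, 16.3, 21.4 and 10.8 FPKM, and 30 and 10 min did not differ by the test (0.37, adjusted p 0.128). Jasmonate genes differed in their course. VSP1 averaged 5.61, 13.4, 42.4 and 56.4 FPKM, JAZ1 averaged 2.53, 4.31, 7.39 and 12.9 FPKM, and LOX2 averaged 61.8, 91.8, 184 and 184 FPKM at 0, 10, 30 and 60 min. JAZ9 averaged 54.0, 64.9, 110.0 and 86.9 FPKM and MYC2 averaged 16.1, 13.4, 22.6 and 20.9 FPKM at those times, both highest at 30 min. Against 0 min the jasmonate list had 10 rises at 10 min, 16 at 30 min and 19 of 19 at 60 min. TCH4 averaged 35.1, 74.0, 56.1 and 76.8 FPKM, and was lower at 30 than at 10 min (-0.39, adjusted p 0.00124).

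**Figure D4:**
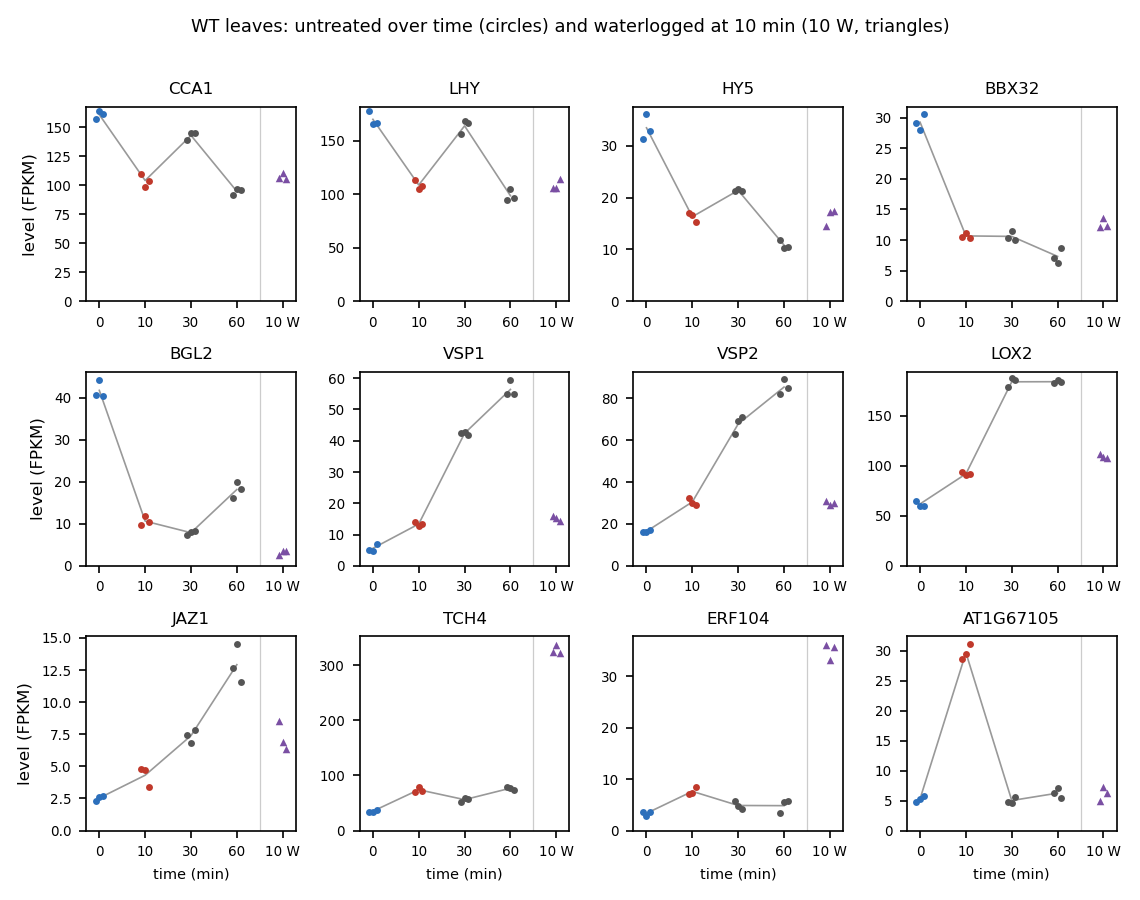
Level of 12 genes (vertical axes, FPKM, from 0) in untreated WT leaves at 0, 10, 30 and 60 min (circles, evenly spaced, line through the means) and in waterlogged WT leaves at 10 min (triangles, 10 W), 3 libraries per group. CCA1 and LHY are lower at 10 and 60 min than at 0 and 30 min, while TCH4 and ERF104 are far higher in the waterlogged leaves than in any untreated group.

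Leaves of plants waterlogged for 10 min had 2553 genes called against the same 0 min libraries (14.6%). The difference between the 2 groups at 10 min was not tested here, and their means are given side by side. Of clock and light genes, CCA1 averaged 107 FPKM in waterlogged and 104 FPKM in untreated leaves, HY5 averaged 16.4 FPKM in waterlogged and 16.3 FPKM in untreated leaves, and BBX32 averaged 12.7 FPKM in waterlogged and 10.7 FPKM in untreated leaves. Of jasmonate genes, VSP2 averaged 30.1 FPKM in waterlogged and 30.5 FPKM in untreated leaves, LOX2 averaged 109 FPKM in waterlogged and 91.8 FPKM in untreated leaves, JAZ1 averaged 7.27 FPKM in waterlogged and 4.31 FPKM in untreated leaves, and LOX4 averaged 8.75 FPKM in waterlogged and 2.55 FPKM in untreated leaves. Members of the touch and ROS list ranged from distant to near values. TCH4 averaged 327 FPKM in waterlogged and 74.0 FPKM in untreated leaves, ERF104 averaged 35.0 FPKM in waterlogged and 7.63 FPKM in untreated leaves, and ERF105 averaged 46.1 FPKM in waterlogged and 2.24 FPKM in untreated leaves. TCH2 averaged 135 FPKM in waterlogged and 83.1 FPKM in untreated leaves, WRKY53 averaged 2.86 FPKM in waterlogged and 1.77 FPKM in untreated leaves, and WRKY6 averaged 2.46 FPKM in waterlogged and 2.31 FPKM in untreated leaves. Outside the list, MYB77 averaged 38.9 FPKM in waterlogged and 15.6 FPKM in untreated leaves. In the touch and ROS list 25 of 27 tested genes were called higher in waterlogged leaves against 0 min and 14 in untreated leaves against 0 min. RBOHD averaged 32.3 FPKM in leaves waterlogged for 10 min and 17.43 FPKM at 0 min.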

How the data were processed

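RNA sequencing of systemic leaves gave 30 libraries, and the 6 of WT controls at 10 min and WT at 0 min were compared. RNA came from Qiagen plant RNeasy extraction and Illumina library preparation, per the labels' protocols. Per the submitters' processing notes, Trim Galore 0.6.7, HISAT2 2.2.1, Cufflinks 2.2.1, Cuffdiff and TAIR10 were used; the annotation, strand setting and treatment of reads with several matches are not given in the sources used here. The deposited files hold FPKM per gene, already scaled by the authors to library size and gene length, so no count model was used. Of 32826 rows per file, 2 duplicated identifiers and 2 genes with a status other than OK were left out, which left 32820 genes. Depth was read from the authors' confidence bounds and is an implied number of fragments.

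Values were transformed as log2(FPKM + 1), so fold changes of low genes are understated. The 17491 genes that averaged 1 FPKM or more across the 30 libraries were fitted with limma 3.58.1 under R 4.3.3, all 10 groups together (20 residual degrees of freedom), with two-sided tests and Benjamini-Hochberg adjustment over all tested genes. The contrast of 30 against 10 min was added after the data were seen. Named genes were the 12 largest rises and falls described in the results, up to 3 genes of other types in each direction, up to 4 called members of each list, and RBOHD, CCA1, LHY, TOC1, ZAT12, WRKY40 and TCH4. AT5G35605, AT3G41768, AT5G11970 and AT4G39364 were named after their values were seen. Others named in that way are said to be so in the results. Further list members are given by their log2 fold changes. The 29 lists, 330 genes in all, and the comparison itself were chosen with earlier results of these data known. Identifiers were matched by locus tag to the RefSeq TAIR10.1 table: 99.1% matched, and 99.95% of these had identical boundaries, so promoter sequences were read from that genome. The script for the fit was tested on simulated data. Tables used Python 3.11.15 and pandas 2.3.3, and gene copies were aligned with blastn 2.17.0. Alternatives covered the pseudocount, the filter, the scaling, the libraries fitted, the replicate block and each replicate left out.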

Additional observations from a re-analysis of the deposited data

How the results depend on the processing

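Of 126 named genes, 96 were called, and none of these changed direction under any of 17 alternatives. Of the 96, 59 remained called in the fit of the 6 libraries and 68 in every alternative other than the fits of the 6 libraries. The fit of the 6 libraries called 481 genes, 170 higher and 311 lower, and within lists 8 morning clock genes, 0 photosynthesis genes, 4 dark and sugar genes, 5 jasmonate genes and 2 abscisic acid genes; fewer libraries leave fewer degrees of freedom. Without one replicate at a time the calls were 849 to 1031 genes, lowest without WT control 10 min replicate 2 (849) and without WT 0 min replicate 3 (922), with 531 to 706 lower; photosynthesis had 2 to 9 calls and abscisic acid 5 to 7. Quantile normalization left 535 genes lower, 1 photosynthesis gene and 5 abscisic acid genes, and equal totals of nuclear protein-coding genes gave 1445 lower; the cause was not tested. With a pseudocount of 0.1, 64 genes changed at least 2-fold, since low genes are then less compressed. The 12 untreated WT libraries alone called 7 photosynthesis genes. Same-numbered replicates correlated in their deviations from group means at 0.0525, 0.15 and 0.00773, and other pairs at -0.209 to 0.155. With 3 libraries per group this cannot settle whether equal numbers mark a shared harvest or batch. A replicate block in the fit of all groups called 1284 genes. A replicate block within the 6 libraries, chosen after seeing the data, called 4 genes, all 4 past 2-fold (2 higher, 2 lower), and 0 members of each of the 7 lists described by their counts. Genes near 1 FPKM are the least precise at this depth.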

Other observations

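B-box genes were counted as a family after their falls were seen, by the symbols BBX and COL. Of 24 tested, 13 were called lower and 1 higher, beside 5.32% and 2.61% of all tested genes. The family's median log2 fold change was -0.28. COL1 averaged 54.2 FPKM at 10 min and 80.3 FPKM at 0 min (-0.56), COL2 averaged 59.9 FPKM at 10 min and 78.9 FPKM at 0 min (-0.39), and BBX25, BBX19, BBX18 and BBX16 were lower by 0.45 to 0.72 in absolute log2 value. BBX14 was the member called higher, with 80.0, 88.8 and 84.0 FPKM at 10 min, against 64.5, 67.7 and 67.1 FPKM at 0 min (0.34, adjusted p 1.12e-05). COL4, COL5, BBX15 and BBX12 did not pass.

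AT1G67105 (chr1:25057479-25058264), a noncoding RNA gene with no role given here, had 28.6, 29.4 and 31.1 FPKM at 10 min, against 4.85, 5.26 and 5.80 FPKM at 0 min (2.28, SE 0.16, adjusted p 2.27e-09). It read 4.65 to 5.58 FPKM in untreated leaves at 30 min, 5.41 to 7.02 FPKM at 60 min and 5.01 to 7.34 FPKM in leaves waterlogged for 10 min. Leaves waterlogged for 30 min read 30.4 to 33.3 FPKM, and no other group exceeded 10.53 FPKM. It was the single tested gene for which all 6 libraries of those 2 groups lay more than 2-fold above the other 24.

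The small nucleolar RNA gene AT4G39363 (chr4:18305256-18305375) was listed at 474, 741 and 770 FPKM at 10 min and at 0 in all 3 libraries at 0 min, so no fold is given. Its neighbour AT4G39364, 90.7% identical over 118 bases, was listed at 824, 323 and 335 FPKM at 10 min and at 0, 300 and 0 FPKM at 0 min. For genes this short a listed 0 can be a failed estimate. Of 407 long noncoding RNA genes tested, 1 was called higher and 11 lower. Both are smaller shares than the 2.61% called higher and 5.32% called lower over all tested genes. AT5G01765, 1 of the 11, had 12.1, 12.98 and 12.4 FPKM at 10 min and 22.7, 24.9 and 20.9 FPKM at 0 min (-0.82, adjusted p 0.00732). Of 33 mitochondrial genes tested, none was called by limma, and 4 had an unadjusted p under 0.05. Over all 17491 tested genes 1388 were called by limma and 3694 had an unadjusted p under 0.05.

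Among the 17491 tested genes, 16 were higher in all 3 untreated libraries at 10 min than in each of the other 27 libraries of the series, and 28 were lower.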
